A study of Mus musculus with 26 samples.

Results

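The genes described here are 9 mouse genes of lipid handling that are known to respond to the peroxisome proliferator-activated receptors (PPARs): Ppara, Plin2, Angptl4, Fabp1, Acot1, Cyp4a10, Pdk4, Vnn1 and Creb3l3. They were chosen by name, with earlier results of these data known, and all 9 were found among the 55385 gene identifiers that both count tables hold. RNA was sequenced from intestinal organoids, epithelial structures grown in Matrigel from crypts of C57BL/6 mice. All groups shared a medium with EGF, Noggin, R-spondin, N-acetyl-L-cysteine, B27, N2, the Wnt activator CHIR-99021 and the kinase inhibitor Y-27632. Vehicle, arachidonic acid (AA) at 25 µM and prostaglandin E2 (PGE2) at 50 nM were each measured after 1 and 3 days with 3 libraries a group, and vehicle and AA after 6 days with 4 libraries a group, 26 libraries in all. The labelled protocol names PGE2 where the design text names a dimethyl analogue, so PGE2 stands here for either. No genetic change, animal age or intestinal segment is labelled, and the labels do not say whether the replicates were separate cultures or mice, so each p-value measures only the spread between these libraries.

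PPARs are nuclear receptors that bind fatty acids and their derivatives, pair with a retinoid X receptor and act on genes that hold a direct repeat of a short half-site. In the small intestine PPAR-alpha is known for fatty acid oxidation genes of enterocytes, PPAR-delta for the response of crypt cells to dietary fat, and PPAR-gamma for lipid storage genes. AA is a polyunsaturated fatty acid that cyclooxygenases convert to prostaglandins. PGE2 is one of these and signals through cell-surface receptors.

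The promoter of Fabp1 is shown because it held the closest match to the PPAR direct repeat among the genes in the sequence table, and that of Plin2 because it came next, level with 1 start of Creb3l3. The Creb3l3 stretch is not printed because it overlaps an exon of that gene in GENCODE. RefSeq's promoter table (build GRCm38.p6, 250 bases before to 50 after each start) held 6 of the 9 genes, and Angptl4, Vnn1 and Cyp4a10 were not matched. The motif searched on both strands was AGGTCANAGGTCA, and it contains the half-site AGGTCA at each end. Each sequence is written in the direction of its gene, with the motif match in capitals, which lies on the opposite strand in both.
Fabp1 (chr6:71199629-71199826, + strand, upstream): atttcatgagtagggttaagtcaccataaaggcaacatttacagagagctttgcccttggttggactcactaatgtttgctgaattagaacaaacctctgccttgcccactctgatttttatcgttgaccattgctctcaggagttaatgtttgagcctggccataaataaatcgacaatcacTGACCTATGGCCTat
Plin2 (chr4:86670242-86670309, - strand, upstream): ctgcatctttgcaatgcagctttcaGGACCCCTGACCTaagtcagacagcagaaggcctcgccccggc
The Fabp1 match had 1 mismatch and began 67 bases before the start, and 0.554% of 32851 promoters of this length held a match at least as close. The Plin2 match had 2 mismatches and began 225 bases before the start. A match with at most 2 mismatches stood in 3.86% of promoters, and 1 of the 2 Creb3l3 starts listed also held one. Pdk4, Acot1, Ppara and the other Creb3l3 start had no match closer than 4 mismatches, which 79.82% of promoters reached. Fabp1 held 2 exact half-sites, Plin2 1 and Creb3l3 1, beside 16.26% of promoters with any. A match is a description of letters and not a bound site.

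Libraries of days 1 and 3 had 1.01e+07 to 1.46e+07 counts in total, and those of day 6 had 1.61e+07 to 1.98e+07. Expression is given in CPM, counts relative to a common library size after TMM scaling. By library totals alone, without TMM scaling, 3 counts correspond to 0.205 to 0.297 CPM in the first table and 0.152 to 0.186 CPM in the second. The share of mitochondrial ribosomal RNA was 6.74% to 10.3% in the first and 0.00305% to 0.266% in the second, so day and library content cannot be told apart between the tables, and levels were tested only within a table. The 10 epithelial markers summed to 5451 to 14311 CPM. Markers of fibroblasts and muscle summed to 0.222 to 1.6 CPM, those of immune cells to 1.69 to 7.15 CPM, of which Cd68 was the only marker with a mean of at least 1 CPM, and those of endothelial and neural cells to 1.51 to 4.76 CPM. Markers of adipocytes and hepatocytes summed to 6.25 to 16.5 CPM, of which Lipe made up 6.10 to 15.3 CPM. Nkg7 and Lep had 0 counts in all 26 libraries.

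In the tests, 8 of the 9 genes passed the filter on low counts, and Cyp4a10 did not. Pdk4 passed only through treated groups in which it was higher than in vehicle, so its rises are no support for the counts of rises that follow. It is counted among the rises with AA at days 1, 3 and 6 and with PGE2 at day 3. With AA, 6 of the 8 rose and 2 fell at day 1, against 19.5% and 22.2% of the 14850 genes tested that rose and fell. At day 3, 7 rose and 1 fell, against 21.2% and 20.1% of all genes. At day 6, 5 rose and 0 fell, against 15.3% and 15.5% of the 14663 genes tested there. With PGE2, 3 rose and 3 fell at day 1, against 27.0% and 28.9% of all genes, and 5 rose and 2 fell at day 3, against 28.9% and 30.1%. "Rose" and "fell" mean an adjusted p under 0.05 by the edgeR quasi-likelihood test over all genes. The AA and PGE2 comparisons share the vehicle libraries, so their values are set side by side and their likeness is not tested.

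**Figure D1:**
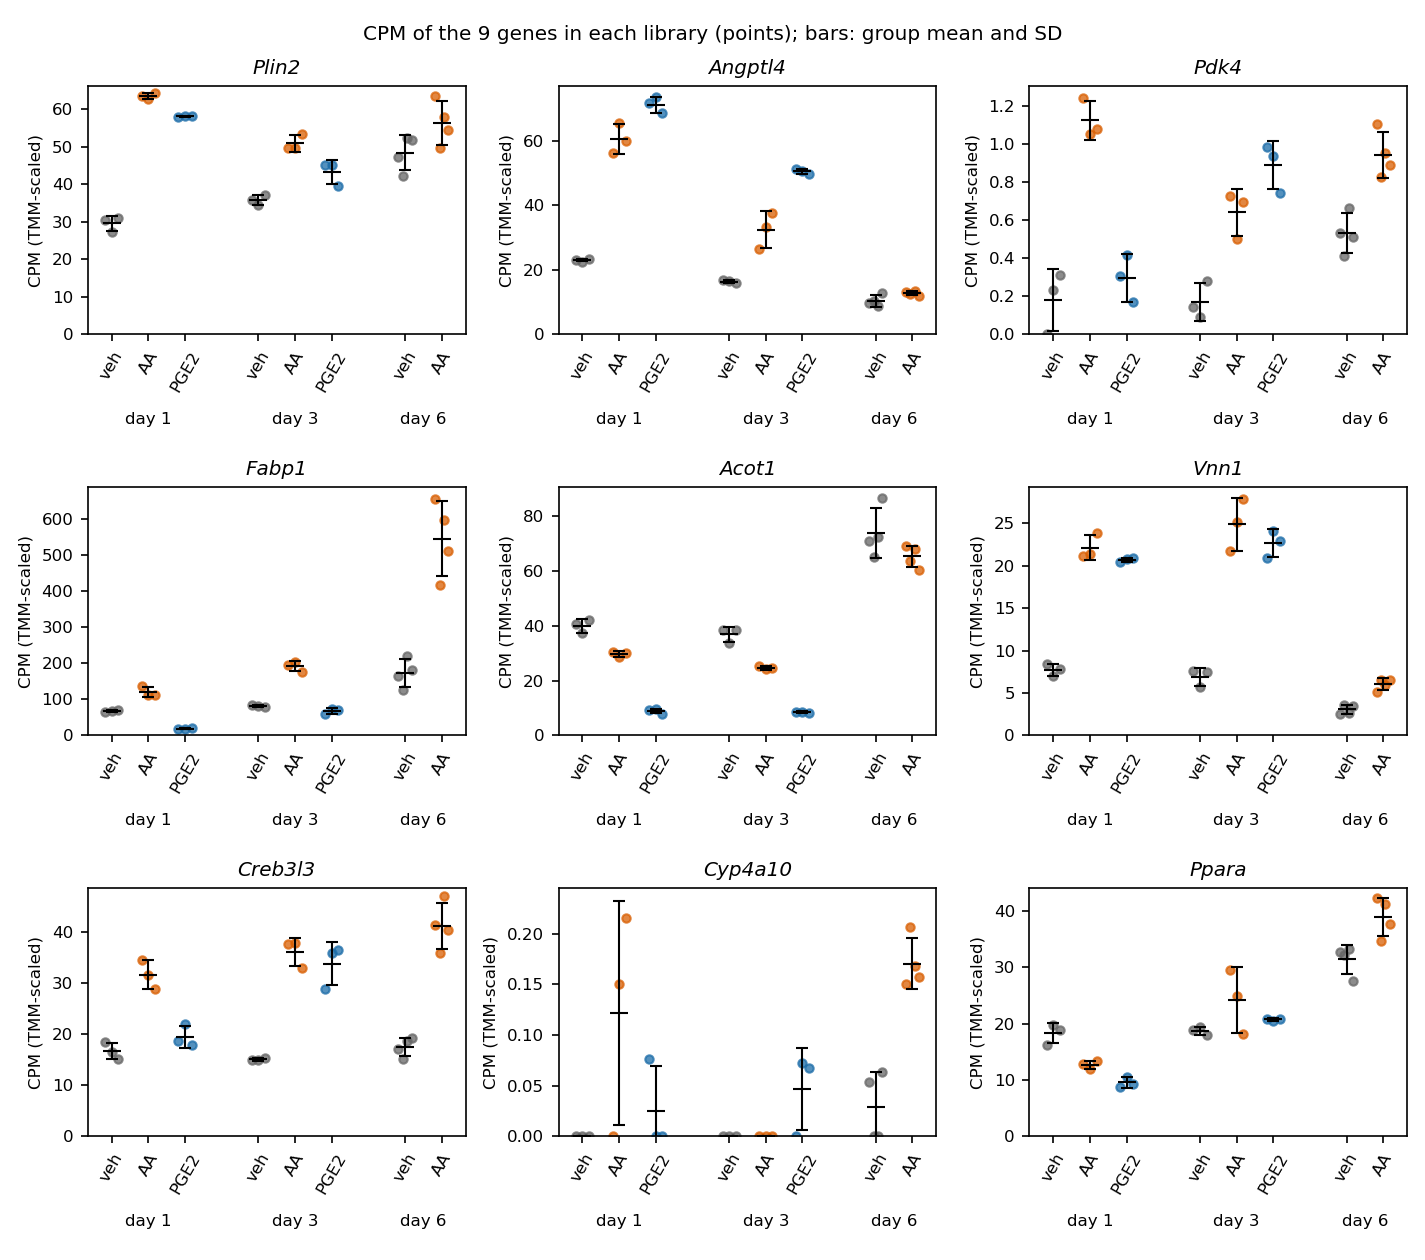
CPM (TMM-scaled, linear axis from 0) of each of the 9 genes in every library by treatment and day. Points are libraries, and bars are the group mean and SD (n = 3, and 4 at day 6). Fabp1 with AA sits above vehicle on every day and with PGE2 below it, while Vnn1 sits near 20 to 28 CPM with either treatment at days 1 and 3.

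**Figure D2:**
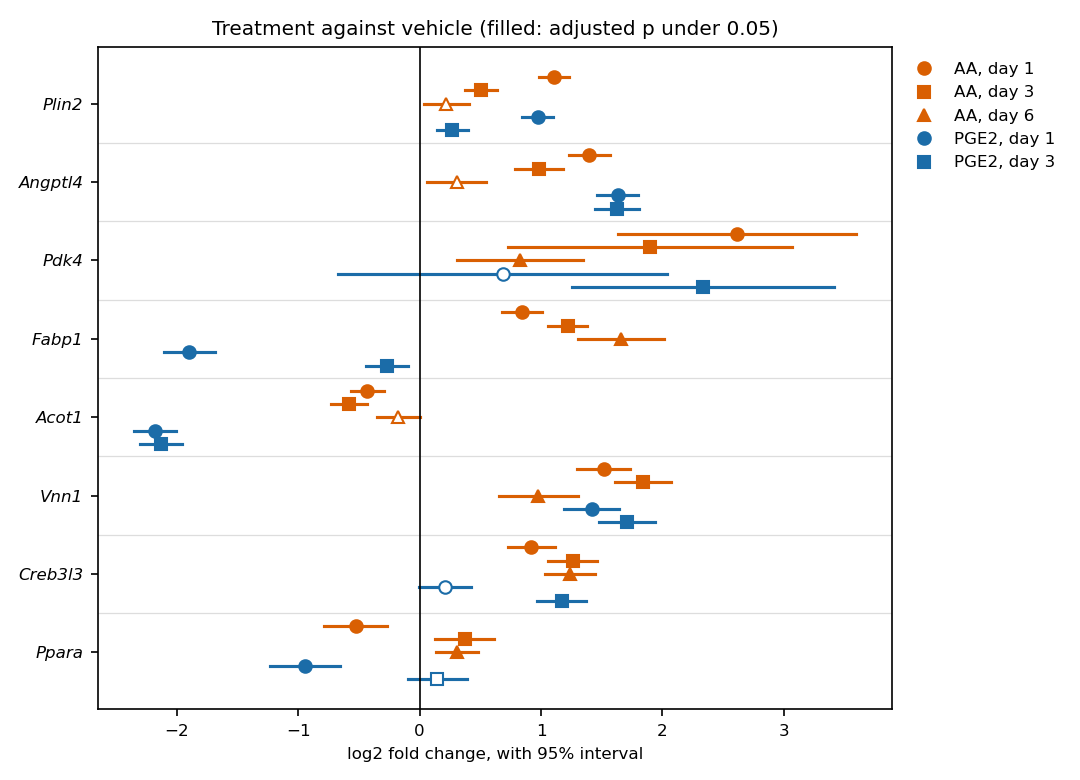
Log2 fold change against vehicle of the 8 tested genes with AA (orange) at days 1, 3 and 6 and with PGE2 (blue) at days 1 and 3, with 95% intervals from the edgeR fit. Filled symbols passed the adjusted threshold. Acot1 lies left of 0 in all 5 comparisons, and Fabp1 lies right of 0 with AA and left of 0 with PGE2.

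Ppara encodes PPAR-alpha, the receptor most tied to fatty acid oxidation. Its level fell at day 1 with both treatments. Vehicle libraries held 16.3, 19.7 and 18.9 CPM, AA libraries 12.8, 11.9 and 13.3, and PGE2 libraries 8.77, 10.5 and 9.37. All treated libraries were below all vehicle libraries. The log2 fold change was -0.53 ± 0.13 (SE) with AA (edgeR adjusted p = 0.0016) and -0.94 ± 0.14 with PGE2 (edgeR adjusted p = 2.7e-06). At day 3 vehicle held 18.8, 19.4 and 18 CPM and PGE2 20.9, 20.5 and 20.9, with a log2 fold change of 0.15 ± 0.12 that did not pass (edgeR adjusted p = 0.3). The AA libraries at day 3 spread over 29.6, 24.9 and 18.1 CPM and overlapped vehicle. The rise of 0.37 ± 0.12 on the log2 scale (edgeR adjusted p = 0.014) was lost without AA replicate 1, where it was 0.18 (edgeR adjusted p = 0.2; 0.56 without AA replicate 3), with library totals alone (0.31, adjusted p = 0.059) and in a fit of the contrast's own groups (0.37, adjusted p = 0.086). At day 6 AA held 34.6 to 42.2 CPM and vehicle 27.6 to 33.3, without overlap, a rise of 0.31 ± 0.08 (edgeR adjusted p = 0.012). These are bulk libraries, in which fewer cells of a type and less RNA per cell cannot be told apart.

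The other PPAR receptor genes rose with both treatments at days 1 and 3. Pparg was at 26.9 ± 0.756 CPM (SD, n = 3) in vehicle, 41.5 ± 1.67 with AA and 50.6 ± 1.56 with PGE2 at day 1. Its log2 fold change was 0.63 and 1.06 with AA at days 1 and 3, and 0.91 and 1.10 with PGE2 (edgeR adjusted p of at most 3.7e-09). Ppard was at 44.0 ± 5.80 CPM in vehicle, 66.6 ± 2.89 with AA and 98.7 ± 5.30 with PGE2 at day 1. Its log2 fold change was 0.59 on both days with AA, and 1.16 and 1.07 with PGE2 (edgeR adjusted p of at most 1.1e-07). At day 6 with AA, Ppard rose by 0.31 (edgeR adjusted p = 0.0084), and Pparg had a log2 fold change of 0.22 that did not pass (edgeR adjusted p = 0.055). Of 13 receptor and cofactor genes, Pparg and Ppard among them and Ppara apart, 12 were tested. With AA, 2 rose and 4 fell at day 1, 4 and 2 at day 3, and 3 and 1 at day 6. With PGE2, 3 rose and 5 fell at day 1, and 3 and 4 at day 3. Of all genes tested, 19.5%, 21.2% and 15.3% rose and 22.2%, 20.1% and 15.5% fell with AA at days 1, 3 and 6, and 27.0% and 28.9% rose and 28.9% and 30.1% fell with PGE2 at days 1 and 3, so these counts of 12 are no result about the list. Rxrb, a retinoid X receptor, fell in all 5 comparisons, by 0.16 (AA, day 3) to 0.52 (PGE2, day 1) on the log2 scale. Rxra, another retinoid X receptor, rose at day 3 with AA by 0.33 and with PGE2 by 0.37 (edgeR adjusted p = 0.00029 and 4e-05). Ppargc1a, a coactivator of mitochondrial genes, rose with AA at day 6 by 0.76 (edgeR adjusted p = 0.00057).

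Plin2 coats lipid droplets. At day 1 vehicle libraries held 30.5, 27.1 and 30.9 CPM, AA libraries 63.6, 62.7 and 64.2, and PGE2 libraries 57.8, 58.2 and 58.1. The treated libraries stood apart from vehicle and close to each other. The rise was 1.10 ± 0.06 on the log2 scale with AA, which is 2.15-fold (edgeR adjusted p = 2.2e-15), and 0.97 ± 0.06 with PGE2 (edgeR adjusted p = 2.5e-14). By day 3 vehicle held 35.8, 34.5 and 37.2 CPM, AA 49.6, 49.5 and 53.4, and PGE2 45.0, 45.2 and 39.4. The groups still did not overlap, with rises of 0.51 ± 0.06 (edgeR adjusted p = 8.7e-08) and 0.27 ± 0.06 (edgeR adjusted p = 0.00053). At day 6 vehicle held 42.3 to 52.3 CPM and AA 49.6 to 63.6, and the libraries overlapped. The log2 fold change of 0.22 ± 0.09 did not pass (edgeR adjusted p = 0.069). It passed without vehicle replicate 4 (0.26, adjusted p = 0.045) or AA replicate 2 (0.28, adjusted p = 0.03), and with no filter on low counts (0.23, adjusted p = 0.016). Without AA replicate 1 it was 0.16 (edgeR adjusted p = 0.2).

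Angptl4 encodes a secreted inhibitor of lipoprotein lipase. At day 1 vehicle libraries held 23.1, 22.5 and 23.2 CPM, AA libraries 56.2, 65.6 and 59.8, and PGE2 libraries 71.6, 73.4 and 68.4. The 3 groups did not overlap. The rise was 1.40 ± 0.08 with AA (edgeR adjusted p = 2.9e-14) and 1.63 ± 0.08 with PGE2 (edgeR adjusted p = 2.5e-16) on the log2 scale. At day 3 vehicle held 16.8, 16.4 and 15.8 CPM, AA 26.5, 33.1 and 37.7, and PGE2 51.3, 50.6 and 49.7. The rises were 0.98 ± 0.10 with AA (edgeR adjusted p = 1.7e-09) and 1.62 ± 0.09 with PGE2 (edgeR adjusted p = 2.7e-15). At day 6 vehicle held 8.65 to 12.9 CPM and AA 12 to 13.4, with overlap from 1 vehicle library. The log2 fold change of 0.30 ± 0.11 did not pass (edgeR adjusted p = 0.058), and without that library, replicate 4, it was 0.42 (edgeR adjusted p = 0.0024). Without vehicle replicate 3 it was 0.23 (edgeR adjusted p = 0.15). It also passed with no filter on low counts (0.31, adjusted p = 0.025) and without ribosomal and mitochondrial genes (0.31, adjusted p = 0.048).

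Fabp1, the liver-type fatty acid binding protein that carries fatty acids in enterocyte cytosol, moved in opposite directions with the 2 treatments. At day 1 vehicle libraries held 65.6, 66.6 and 70.0 CPM, AA libraries 136, 113 and 113, and PGE2 libraries 17.4, 17 and 19.7. No library overlapped another group. The rise with AA was 0.84 ± 0.08 on the log2 scale (1.79-fold, edgeR adjusted p = 1.5e-08), and the fall with PGE2 was 3.73-fold, a log2 fold change of -1.90 ± 0.10 (edgeR adjusted p = 3.4e-13). By day 3 vehicle held 85.3, 81.0 and 79.9 CPM, AA 196, 203 and 177, and PGE2 59.1, 73.7 and 71.3. The groups again did not overlap, and the PGE2 libraries lay closer to vehicle than at day 1. The log2 fold change was 1.22 ± 0.08 with AA (edgeR adjusted p = 2.5e-11) and -0.27 ± 0.08 with PGE2 (edgeR adjusted p = 0.0073). At day 6 vehicle held 164, 125, 221 and 182 CPM and AA 658, 417, 598 and 513. The lowest AA library was above the highest vehicle library, and the rise was 3.16-fold, 1.66 ± 0.16 on the log2 scale (edgeR adjusted p = 2.6e-05).

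Acot1, a cytosolic thioesterase that frees fatty acids from their coenzyme A esters, was the member that fell with both treatments at days 1 and 3. At day 1 vehicle libraries held 40.8, 37.2 and 42.1 CPM, AA libraries 30.5, 28.6 and 29.9, and PGE2 libraries 9.07, 9.59 and 7.94. At day 3 vehicle held 38.3, 33.8 and 38.3 CPM, AA 25.4, 24.0 and 24.4, and PGE2 8.63, 8.60 and 8.06. On both days the 3 groups stood apart in the order vehicle, AA, PGE2. The log2 fold change with AA was -0.43 ± 0.07 at day 1 and -0.58 ± 0.07 at day 3 (edgeR adjusted p = 3.9e-06 and 7.1e-08). With PGE2 the level was 4.53-fold lower at day 1 and 4.38-fold lower at day 3 (edgeR adjusted p = 8.6e-20 and 1.7e-19). At day 6 vehicle held 65.3 to 86.7 CPM and AA 60.5 to 69.0, with overlap, and the log2 fold change of -0.18 ± 0.08 did not pass (edgeR adjusted p = 0.12). Without vehicle replicate 2 it was -0.23 (adjusted p = 0.047), and without vehicle replicate 4 it was -0.0913 (adjusted p = 0.23).

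Acot1 shares 13.56% of its runs of 50 transcript bases with the mitochondrial thioesterase Acot2, and 18.37% with any of 5 relatives, so some of their reads could be split between them. Acot2 went from 5.11 ± 1.3 CPM in vehicle to 4.54 ± 0.327 with AA and 1.53 ± 0.340 with PGE2 at day 1. It fell with PGE2 at days 1 and 3 (log2 fold change -1.71 and -1.08, edgeR adjusted p = 4e-08 and 8.7e-06). Its log2 fold changes with AA, -0.17, 0.22 and 0.03 at days 1, 3 and 6, did not pass. Acot4, a peroxisomal relative, rose with AA at days 3 and 6 by 0.55 and 0.45 (edgeR adjusted p = 0.00039 and 0.00069) and fell with PGE2 at day 1 (-0.80, edgeR adjusted p = 1.5e-05). Acot6 fell with AA at day 6 (-0.56, edgeR adjusted p = 0.013).

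Cyp4a10, a fatty acid omega-hydroxylase and a classic PPAR-alpha target of liver, was close to absent. Summed over the libraries of a group it had 0, 5 and 1 counts in vehicle, AA and PGE2 at day 1, 0, 0 and 2 at day 3, and 2 and 13 in vehicle and AA at day 6. A count of 0 allows up to 0.0751 CPM in vehicle at day 1, taken as 3 counts of the group's total without TMM scaling. The exact Poisson 95% intervals at day 6, also unscaled, were 0.00338 to 0.101 CPM for vehicle and 0.0905 to 0.291 CPM for AA. They cover counting error only. All 4 AA libraries (0.151 to 0.207 CPM) were above the 4 vehicle libraries (0 to 0.0640 CPM) at day 6. With no filter on low counts the edgeR adjusted p was 0.069 there, so the difference did not pass. The gene shares 24.45% of its 50-base runs with Cyp4a32 and 29.82% with any of 5 relatives, and Cyp4a32 had 30 counts in vehicle and 8 with AA at day 6.

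Pdk4, a kinase that turns off pyruvate dehydrogenase and so favours fatty acid use, rested on few reads: at most 22 counts in a library. At day 1 the vehicle libraries held 0, 0.231 and 0.312 CPM, AA 1.24, 1.05 and 1.08, and PGE2 0.305, 0.417 and 0.167. AA stood above the other groups, and PGE2 overlapped vehicle. The log2 fold change was 2.61 ± 0.48 with AA (edgeR adjusted p = 5.2e-05), and the value for PGE2, 0.68 ± 0.66, did not pass (edgeR adjusted p = 0.4). Both values moved with the vehicle libraries, whose counts were 0, 3 and 4: without vehicle replicate 1 they were 2.01 and 0.0853, and without vehicle replicate 3 they were 3.23 and 1.30. At day 3 vehicle held 0.144, 0.0885 and 0.281 CPM, AA 0.728, 0.498 and 0.696, and PGE2 0.986, 0.939 and 0.745. Both treatments stood above vehicle, with log2 fold changes of 1.90 ± 0.57 for AA (edgeR adjusted p = 0.008) and 2.33 ± 0.53 for PGE2 (edgeR adjusted p = 0.00035). The gene passed the filter on low counts at days 1 and 3 through AA at day 1 (14 to 18 counts) and PGE2 at day 3 (11 to 13 counts), so its difference from vehicle there was in part fixed by that filter. With no filter on low counts, the values were 2.62 with AA at day 1, 1.91 with AA at day 3 and 2.30 with PGE2 at day 3 (edgeR adjusted p = 7.2e-06, 0.014 and 0.00033). At day 6 AA held 0.826 to 1.11 CPM and vehicle 0.409 to 0.666, a rise of 0.83 ± 0.24 (edgeR adjusted p = 0.021), in a table where it passed the filter through AA. That call was lost without vehicle replicate 2 (0.71, adjusted p = 0.058), without AA replicate 1 (0.74, adjusted p = 0.062), with DESeq2 (0.84, adjusted p = 0.096) and with no filter on low counts (0.83, adjusted p = 0.056).

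Vnn1 encodes pantetheinase, an enzyme of coenzyme A turnover. At day 1 vehicle libraries held 8.36, 6.99 and 7.81 CPM, AA libraries 21.2, 21.4 and 23.8, and PGE2 libraries 20.4, 20.8 and 20.9. After 3 days vehicle held 7.57, 5.66 and 7.50 CPM, AA 21.7, 25.1 and 27.9, and PGE2 20.9, 24.1 and 22.9. On both days each treated library was above each vehicle library. The rises with AA were 1.52 ± 0.11 and 1.84 ± 0.11 on the log2 scale at days 1 and 3 (edgeR adjusted p = 5.9e-13 and 2.5e-14). Those with PGE2 were 1.42 ± 0.11 and 1.71 ± 0.11 (edgeR adjusted p = 2.2e-12 and 3.8e-14). At day 6 the level was 5.08 to 6.56 CPM with AA and 2.51 to 3.63 with vehicle, without overlap, a rise of 0.98 ± 0.15 (edgeR adjusted p = 0.00056).

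Creb3l3 encodes a membrane-bound transcription factor of triglyceride metabolism that is abundant in liver and small intestine. At day 1 vehicle libraries held 18.4, 16.5 and 15.1 CPM, AA libraries 34.4, 31.5 and 28.8, and PGE2 libraries 18.5, 21.9 and 17.8. AA stood apart, and PGE2 overlapped vehicle. The rise with AA was 0.92 ± 0.10 on the log2 scale (edgeR adjusted p = 4.6e-09), and the PGE2 value of 0.21 ± 0.11 did not pass (edgeR adjusted p = 0.097), but passed without vehicle replicate 1 (0.28, adjusted p = 0.044) and in a fit of the contrast's own groups (0.23, adjusted p = 0.038). Without PGE2 replicate 2 it was 0.13 (edgeR adjusted p = 0.37). After 3 days vehicle held 14.9, 14.9 and 15.3 CPM, AA 37.5, 37.7 and 32.8, and PGE2 28.8, 35.8 and 36.4. Both treatments were above vehicle without overlap, by 1.26 ± 0.10 (edgeR adjusted p = 1.7e-11) and 1.17 ± 0.10 (edgeR adjusted p = 2.6e-11). At day 6 AA held 35.7 to 46.9 CPM and vehicle 15.2 to 19.2, a rise of 1.23 ± 0.09 (edgeR adjusted p = 4.7e-06).

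Levels can be compared between genes per kilobase of exon. On that scale Fabp1 was at 122 CPM per kilobase in vehicle at day 1, Acot1 at 10.2, Plin2 at 8.41, Angptl4 at 6.48, Creb3l3 at 5.52, Ppara at 4.77, Vnn1 at 3.2 and Pdk4 at 0.0516. In the AA libraries of day 6 Fabp1 was at 988 CPM per kilobase and the next, Acot1, at 16.7.

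AA and PGE2 were then compared directly, which answers where the fatty acid and the prostaglandin gave different levels. At day 1, 5 of the 8 genes were higher with AA and 1 was lower, against 11.3% and 16.5% of all genes. Pdk4 is among the 5 and passed the filter on low counts through AA at day 1, so it is no support for that count. At day 3, 3 were higher and 1 was lower, against 18.1% and 20.3%. Fabp1 was 6.67-fold higher with AA than with PGE2 at day 1 and 2.81-fold higher at day 3, log2 differences of 2.74 ± 0.10 and 1.49 ± 0.08 (edgeR adjusted p = 2.2e-15 and 1.9e-12). Acot1, which was below vehicle in both, was 3.36-fold and 2.93-fold higher with AA than with PGE2 (edgeR adjusted p = 5e-16 and 1.5e-14). Creb3l3 was higher with AA at day 1 by 0.71 ± 0.10 (edgeR adjusted p = 8.8e-07). Its difference at day 3 was 0.09, with a 95% interval of -0.09 to 0.26.

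Angptl4 was the only tested member lower with AA than with PGE2 on both days. The log2 difference was -0.23 ± 0.07 at day 1 and -0.64 ± 0.08 at day 3 (edgeR adjusted p = 0.015 and 2.3e-07). The day 1 call was lost without AA replicate 1 or 3 or PGE2 replicate 1 or 2 (-0.18 to -0.23, adjusted p = 0.055 to 0.11) and with library totals alone (-0.17, adjusted p = 0.064). Pdk4 was higher with AA at day 1 by 1.93 ± 0.45 (edgeR adjusted p = 0.0013), and at day 3 its difference was -0.43 with an interval of -1.23 to 0.36. The day 1 difference of Pdk4 was in part fixed by the filter on low counts, and with no such filter it was 1.95 (edgeR adjusted p = 0.00097). DESeq2 gave Pdk4 no adjusted p at day 1. Ppara was higher with AA at day 1 by 0.42 ± 0.15 (edgeR adjusted p = 0.035), a call lost without AA replicate 1 or 3 or PGE2 replicate 1 or 3 (0.36 to 0.41, adjusted p = 0.087 to 0.15). Its day 3 difference of 0.22 had an interval of -0.01 to 0.46, and it passed without AA replicate 3 (0.44, adjusted p = 0.00014) and with no filter on low counts (0.27, adjusted p = 0.012). Without AA replicate 1 the same difference was 0.0353 (edgeR adjusted p = 0.83), so it rests on single AA libraries. Plin2 differed by 0.13 at day 1, with an interval of 0.01 to 0.25 (edgeR adjusted p = 0.093), and passed there with library totals alone (0.20, adjusted p = 0.014) and in a fit of the contrast's own groups (0.14, adjusted p = 0.008). At day 3 it was higher with AA by 0.24 ± 0.06 (edgeR adjusted p = 0.0022). Vnn1 did not pass on either day, with intervals of -0.09 to 0.29 and -0.05 to 0.31, and its day 3 difference of 0.13 passed without AA replicate 1 (0.23, adjusted p = 0.048) and was 0.0694 without AA replicate 3 (adjusted p = 0.62).

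**Figure D3:**
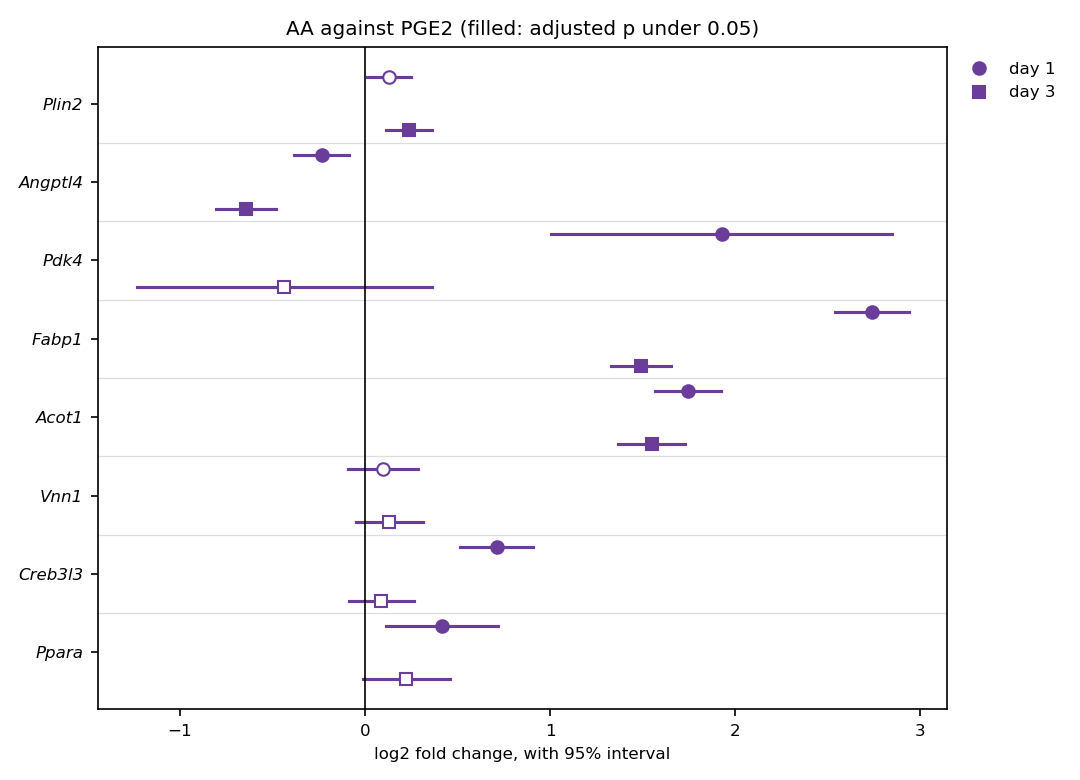
Log2 fold change of AA against PGE2 for the 8 tested genes at days 1 (circles) and 3 (squares), with 95% intervals from the edgeR fit, right of 0 meaning higher with AA. Filled symbols passed the adjusted threshold. Fabp1 and Acot1 lie above 1 on both days, Angptl4 lies below 0 on both, and the Vnn1 intervals span 0.

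In vehicle, Plin2 and Fabp1 were higher at day 3 than at day 1, by 0.28 ± 0.07 and 0.29 ± 0.08 on the log2 scale (edgeR adjusted p = 0.0012 and 0.0079), and Angptl4 was lower, by -0.49 ± 0.10 (edgeR adjusted p = 0.00027). The other 5 did not pass, and 19.8% and 20.5% of all genes were higher and lower. The size of the treatment responses also differed between days. From day 1 to day 3 the AA response rose for 2 members and fell for 2, against 10.0% and 7.95% of all genes. For Plin2 the difference of responses was -0.60 ± 0.09 (edgeR adjusted p = 1e-05) and for Ppara 0.90 ± 0.17 (edgeR adjusted p = 0.00063). For Angptl4 it was -0.41 ± 0.13 (edgeR adjusted p = 0.023), lost without AA day 1 replicate 2 (-0.35, adjusted p = 0.066) or AA day 3 replicate 1 (-0.27, adjusted p = 0.075). For Fabp1 it was 0.38 ± 0.11 (edgeR adjusted p = 0.019), lost with library totals alone (0.33, adjusted p = 0.084) and without vehicle day 1 replicate 3, AA day 1 replicate 3 or vehicle day 3 replicate 2 (0.34 to 0.37, adjusted p = 0.05 to 0.064).

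The PGE2 response rose from day 1 to day 3 for 3 members and fell for 1, against 12.6% and 11.6% of all genes. Fabp1 moved up by 1.63 ± 0.13 on the log2 scale (edgeR adjusted p = 4.2e-09), Ppara by 1.09 ± 0.18 (edgeR adjusted p = 7.4e-05) and Creb3l3 by 0.96 ± 0.15 (edgeR adjusted p = 8.7e-06). Plin2 moved by -0.71 ± 0.09 (edgeR adjusted p = 3.6e-07). For Acot1 and Angptl4 the PGE2 responses of the 2 days differed by 0.05 ± 0.13 and -0.01 ± 0.13, with 95% intervals of -0.21 to 0.31 and -0.27 to 0.26.

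From day 3 to day 6 the AA response rose for 1 member and fell for 3 in a joint fit of all 26 libraries, against 8.78% and 10.4% of 15504 genes. These days stand in separate count tables, so a difference of responses between days and one between tables cannot be told apart. Vnn1 moved by -0.88 ± 0.19 (edgeR adjusted p = 0.0011) and Angptl4 by -0.69 ± 0.15 (edgeR adjusted p = 0.00099). Acot1 moved by 0.39 ± 0.11 (edgeR adjusted p = 0.012), a call lost in a fit of the contrast's own groups (0.37, adjusted p = 0.057). Plin2 moved by -0.30 ± 0.11 (edgeR adjusted p = 0.047), a call lost without any 1 of 11 of the 14 vehicle and AA libraries of those days (-0.24 to -0.32, adjusted p = 0.051 to 0.15), under both other scalings and with DESeq2 (-0.22 to -0.29, adjusted p = 0.053 to 0.15), and in a fit of the contrast's own groups (-0.31, adjusted p = 0.099). The Fabp1 difference of 0.42 ± 0.22 did not pass (edgeR adjusted p = 0.18), but passed without vehicle day 6 replicate 3 (0.56, adjusted p = 0.049), and was 0.30 without vehicle day 6 replicate 2 (adjusted p = 0.26).

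A wider list of 70 genes known as PPAR targets, the 9 apart, was described by counts. It covers fatty acid uptake, mitochondrial and peroxisomal oxidation and lipid droplets, and 57 were tested at days 1 and 3 and 55 at day 6. With AA, 22 rose and 16 fell at day 1 (median log2 fold change 0.07), 34 rose and 7 fell at day 3 (median 0.33), and 22 rose and 4 fell at day 6 (median 0.11). With PGE2, 15 rose and 34 fell at day 1 (median -0.27), and 27 rose and 13 fell at day 3 (median 0.13). The medians of all genes tested were -0.03, -0.03, -0.01, -0.02 and -0.04 in the same 5 comparisons. Of all genes tested, 19.5%, 21.2% and 15.3% rose and 22.2%, 20.1% and 15.5% fell with AA at days 1, 3 and 6. With PGE2 these shares were 27.0% and 28.9% for rises and 28.9% and 30.1% for falls at days 1 and 3. The 15 rises of 57 with PGE2 at day 1 were near the share of all genes. Set directly against PGE2, AA was higher for 31 and lower for 4 at day 1, and higher for 29 and lower for 11 at day 3. Of all genes tested, 11.3% were higher and 16.5% lower with AA at day 1, and 18.1% and 20.3% at day 3.

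**Figure D4:**
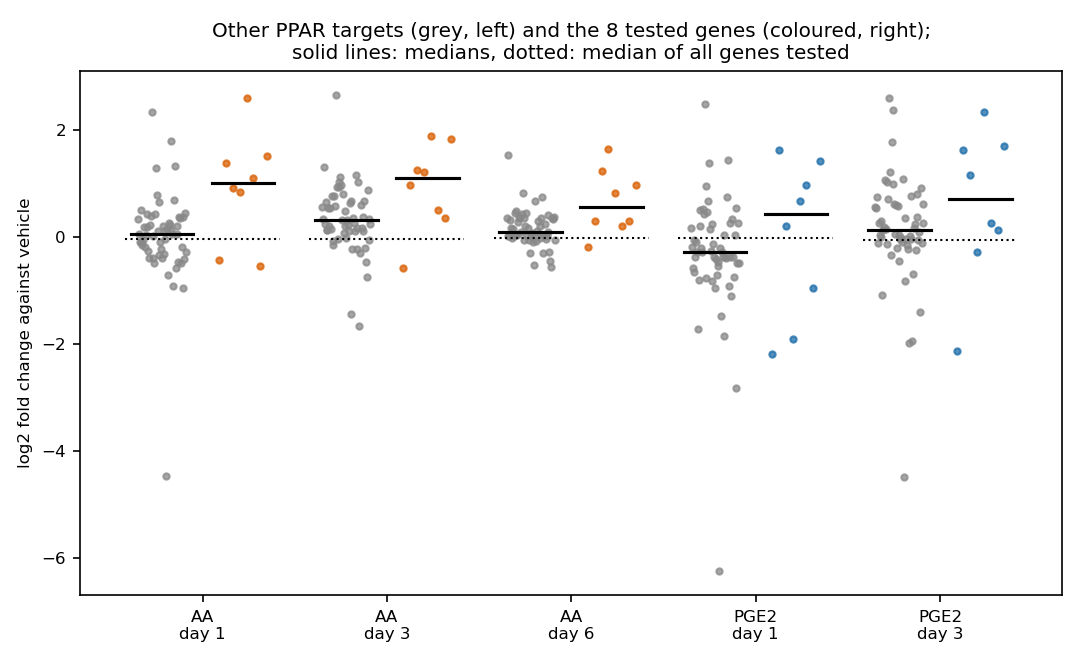
Log2 fold change against vehicle of the other PPAR targets (grey points, left of each pair) and of the 8 tested members (coloured points, right) in the 5 comparisons. Solid lines are list medians and dotted lines the median of all genes tested. The grey median is -0.27 with PGE2 at day 1 and 0.33 with AA at day 3.

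Cpt1a, the gate of mitochondrial fatty acid import, rose with AA at day 1 from 85.6 ± 2.40 to 148 ± 5.86 CPM (log2 fold change 0.79, edgeR adjusted p = 9e-13) and at day 3 by 0.99 (edgeR adjusted p = 2.1e-14). Me1, the malic enzyme that supplies NADPH, rose with AA by 0.70, 1.03 and 0.76 at days 1, 3 and 6, and with PGE2 by 0.76 at day 1. Crot, a peroxisomal carnitine acyltransferase, rose with AA at day 1 by 0.65 (edgeR adjusted p = 2e-11). Slc27a4, a fatty acid transport protein, rose with AA at day 3 by 0.88 and with PGE2 at day 1 by 0.55. Acsl5, an acyl-CoA synthetase, rose with PGE2 by 0.54 and 1.04 at days 1 and 3. Fabp2, the intestinal fatty acid binding protein, fell with PGE2 at day 1 (-0.46) and rose at day 3 (1.09, edgeR adjusted p = 1.9e-16).

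Slc27a2, a very long chain acyl-CoA synthetase, fell in all 5 comparisons. It was at 35.9 ± 0.925 CPM in vehicle, 18.5 ± 1.28 with AA and 5.14 ± 0.621 with PGE2 at day 1, log2 fold changes of -0.95 and -2.82 (edgeR adjusted p = 3e-12 and 2.8e-21). Its log2 fold changes were -0.75 with AA and -1.40 with PGE2 at day 3, and -0.56 with AA at day 6. Hadh, an enzyme of mitochondrial beta-oxidation, fell with AA at day 1 (-0.69) and with PGE2 at days 1 and 3 (-1.47 and -0.81). Pank1, a pantothenate kinase of coenzyme A synthesis, fell with AA at days 1 and 3 (-0.57 and -0.30) and with PGE2 at day 3 (-0.69). The lowest grey points of day 1, and of PGE2 at day 3, belong to G0s2, chosen after its values were seen, which had 29, 1 and 0 counts in all vehicle, AA and PGE2 libraries of day 1.

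Markers of enterocytes and stem cells moved in the same libraries. The 24 enterocyte markers summed to 4288 to 4576 CPM in vehicle, 5540 to 5783 with AA and 5367 to 5424 with PGE2 at day 1. Apob and Mgam, with means of 1183 and 1004 CPM over all libraries, weigh most in such sums. At day 3 the sums were 4591 to 4727, 6378 to 7583 and 8089 to 8796 CPM, and at day 6 they were 4399 to 5026 in vehicle and 6600 to 7440 with AA. With AA 13, 20 and 15 of the 24 rose and 3, 1 and 2 fell at days 1, 3 and 6, and with PGE2 9 and 20 rose and 11 and 2 fell at days 1 and 3. Their median log2 fold change was 0.23, 0.81 and 0.45 with AA, and -0.18 and 0.88 with PGE2. The higher sum with PGE2 at day 1 therefore does not describe the list. Of all genes tested, 19.5%, 21.2% and 15.3% rose and 22.2%, 20.1% and 15.5% fell with AA on those days. With PGE2 27.0% and 28.9% of all genes rose and 28.9% and 30.1% fell at days 1 and 3. Krt20, a keratin of mature cells, rose with AA by 0.83 and 1.41 and with PGE2 by 1.68 and 2.28 at days 1 and 3. Dpp4, a brush border peptidase, fell on those days, with log2 fold changes of -0.39 and -0.34 with AA and -1.18 and -0.60 with PGE2. Alpi, intestinal alkaline phosphatase, rose with AA by 2.03 at day 3 and 1.23 at day 6. None of the 24 had 0 counts in a group.

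The 10 stem cell markers summed to 969 to 1003 CPM in vehicle, 477 to 498 with AA and 284 to 300 with PGE2 at day 1. Olfm4 and Smoc2 had the highest means of the 10, 240 and 169 CPM over all libraries. At day 3 the 10 markers summed to 2325 to 2459, 804 to 844 and 417 to 457 CPM, and at day 6 to 907 to 1110 in vehicle and 633 to 907 with AA. With AA 8, 9 and 7 of the 10 fell and 0, 0 and 1 rose at days 1, 3 and 6. With PGE2 9 and 10 fell and 0 rose at days 1 and 3. Of all genes tested, 22.2%, 20.1% and 15.5% fell and 19.5%, 21.2% and 15.3% rose with AA. With PGE2 28.9% and 30.1% fell and 27.0% and 28.9% rose. The immune markers, mostly Cd68, summed to 1.69 to 2.29 CPM in vehicle, 3.69 to 4.46 with AA and 4.27 to 5.11 with PGE2 at day 1. The part of these cell type shifts in the levels of the 9 genes was not tested.

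Across the 18 libraries of days 1 and 3 the members did not form 1 pattern. The highest Pearson r of log2 CPM among the 28 pairs was 0.84 between Vnn1 and Creb3l3, and the lowest was -0.72 between Angptl4 and Acot1. Plin2, Angptl4, Vnn1 and Creb3l3 had r of 0.51 to 0.84 with each other. Pdk4, which rested on few reads, had r of 0.58 (Angptl4) to 0.81 (Creb3l3) with them. Fabp1 had r of 0.69 with Ppara and 0.57 with Acot1, and Fabp1 with Vnn1 had 0.07. Among 11797 genes, the one most like each member was Plat for Plin2 (r = 0.97), Tmem181c-ps for Angptl4 (0.98), Hsd17b11 for Pdk4 (0.85), Slc9a3 for Fabp1 (0.96), Tgm2 for Acot1 (0.99), Dgat2 for Vnn1 (0.98), Crot for Creb3l3 (0.95) and Ehhadh for Ppara (0.96). Crot was also among the 3 genes most like Pdk4 (0.83). These values are descriptions over libraries that share treatment groups and days.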

How the data were processed

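Counts of reads per gene were used as the authors deposited them, whole numbers in 2 tables of 55385 identifiers, with 26 libraries and 0 columns left unmatched. The submitters' processing notes list limma 3.46, STAR, cutadapt and DESeq2, with no roles, and the human build GRCh38.p6, while the identifiers are mouse ones. The sources used here do not give which program counted, on which strand, or with what annotation. The library kit was directional, per the labels' protocols, and in GENCODE no other gene overlaps any of the 9.

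From these counts, edgeR 4.0.16 in R 4.3.3 gave CPM with TMM (trimmed mean of M-values) scaling (no prior count, mean ± SD) and quasi-likelihood tests with 1 mean per group: one fit for days 1 and 3 (18 libraries, 14850 genes), one for day 6 (8 libraries, 14663 genes) and one for all 26 (15504 genes), with 12, 6 and 18 residual degrees of freedom, after filterByExpr. There were 11 comparisons, with Benjamini-Hochberg adjustment over all genes tested and a threshold of 0.05. Fold changes are the model's, with standard errors from the F statistic. Likeness used log2 CPM with a prior count of 2, among genes with a mean of at least 1. The scripts were tested on simulated data. Figures used matplotlib 3.10.9.

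The 9 genes and all lists were chosen with earlier results of these data known. Named genes were the 9, up to 3 rises and 3 falls with the smallest p of each list and treatment, up to 3 of the highest markers of other cell types, the gene most like each member, and relatives that share sequence. Alternatives were other scalings (relative log expression, library totals alone), DESeq2 1.42.0, other filters on low counts, removal of ribosomal and mitochondrial genes, the contrast's own groups, a replicate block, and each library left out. Shared runs came from GENCODE transcripts, promoters from RefSeq. Some genes of the lists are not reported here.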

Additional observations from a re-analysis of the deposited data

Results flagged for a closer look

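Each of these 12 results is a difference between the responses to 1 treatment on 2 days that passed its own test in edgeR, on the log2 scale. For AA, day 3 minus day 1, they were Plin2 at -0.599, Angptl4 at -0.415, Fabp1 at 0.381 and Ppara at 0.898. For PGE2, day 3 minus day 1, they were Plin2 at -0.706, Fabp1 at 1.63, Creb3l3 at 0.963 and Ppara at 1.09. For AA, day 6 minus day 3, they were Plin2 at -0.298, Angptl4 at -0.692, Acot1 at 0.390 and Vnn1 at -0.880. The responses being compared can have opposite signs, as for Ppara with AA, which was below vehicle at day 1 and on average above it at day 3. The AA libraries of day 3 overlapped vehicle for Ppara, and that rise was lost without AA replicate 1. In the 2 groups of 4 libraries, those of day 6, no library of any member stood apart by Dixon's criterion.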

How the results depend on the processing

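Of 1385 values of the members under an alternative, 1311 kept their direction and their side of the threshold, 39 lost the call, 18 gained it and 17 changed sign. None of the called values changed sign. With library totals alone, Angptl4 for the PGE2 response, day 3 minus day 1, was 0.0464, Creb3l3 for the AA response, day 6 minus day 3, was 0.0316, and 12 other PPAR targets changed in the latter comparison, against 24. With no filter on low counts, Ppara in vehicle, day 3 against day 1, was -0.0125. In a fit of the contrast's own groups, 2 members and 1812 genes changed for the AA response, day 6 minus day 3, against 4 and 2969. Leaving out each library in turn, the values that changed sign ranged from -0.667 to 0.549 for Pdk4 and -0.0456 to 0.0902 for Ppara (vehicle, day 3 against day 1), -0.0478 to 0.00835 for Angptl4 and -0.0256 to 0.0990 for Acot1 (PGE2 response, day 3 minus day 1), -0.00418 to 0.188 for Creb3l3 (AA against PGE2, day 3), and -0.109 to 0.0209 for Creb3l3 and -0.246 to 0.107 for Ppara (AA response, day 6 minus day 3). Apart from what fewer genes or samples explain by construction, the cause was not tested.

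Library totals alone moved the share of calls that were higher by over 10 points in 6 comparisons: from 51.3% to 38.7% for AA at day 3, 40.6% to 59.5% for AA against PGE2 at day 1, 49.2% to 64.6% for vehicle, day 3 against day 1, 55.7% to 41.2% for the AA response, day 3 minus day 1, 52.2% to 63.5% for the PGE2 response, day 3 minus day 1 and 45.9% to 63.1% for the AA response, day 6 minus day 3. Values under 1 CPM, as for Pdk4 and Cyp4a10, are limited by depth.

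The deviations of same-numbered libraries had r of -0.0355 to 0.0324 at day 1 and -0.0831 to 0.0552 at day 3. At day 6 it was -0.0665 to 0.136. Differently numbered libraries of a day had r of -0.0284 to 0.0298, -0.0741 to 0.0664 and -0.223 to 0.284 at days 1, 3 and 6. The labels do not say whether replicate numbers pair the samples, and these correlations cannot decide it. With the replicate block, 8, 8, 6, 6 and 7 members changed with AA at days 1, 3 and 6 and with PGE2 at days 1 and 3, and 6 and 4 between AA and PGE2. Over all genes tested the block gave 6136, 6047, 4545, 8266 and 8708 calls, and 4092 and 5621 between AA and PGE2, of 14850 genes (14663 at day 6). Plin2 with AA at day 6 (0.22, adjusted p = 0.033) and Fabp1 for the AA response, day 6 minus day 3 (0.43, adjusted p = 0.026), passed only with the block among these 2 fits. No paired analysis was possible for vehicle, day 3 against day 1, because the numbers are nested in the day. In the day 6 comparison the contrast's own groups are all the groups fitted.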
